A study of Homo sapiens with 12 samples.

Results

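KARPAS-422 and Pfeiffer, a pair of human lymphoma cell lines, were compared at baseline by RNA sequencing. Like RL, the third line of the series, both are established lines of diffuse large B cell lymphoma of the germinal centre type, and the submitters describe an activating mutation in the EZH2 SET domain for all 3. The comparison rests on 5 of the 12 libraries of the series, namely 3 of KARPAS-422 and 2 of Pfeiffer, all from cells kept for 4 days in 0.1% DMSO, the vehicle of the inhibitor experiments, after seeding at 500000 cells per ml. The other libraries are 3 of KARPAS-422 with 1.5 µM CPI-169, 2 of Pfeiffer with 1.5 µM GSK343 (both EZH2 inhibitors) and 2 of RL with DMSO, seeded at 200000 cells per ml, and they serve below as reference points. A gene was taken when 2 or more of the 5 libraries reached 1 FPKM, which left 17222 of the 63129 genes in the table. FPKM, fragments per length of transcript and per total of mapped fragments, is a level that can be compared between genes because it is given per length. Of the genes taken, 12021 reached 1 FPKM in all 5 libraries, 1754 passed only through KARPAS-422 and 2741 only through Pfeiffer. A gene that passed only through 1 line can differ only towards that line. Its side in the counts below was therefore set by the filter.

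A B cell in a germinal centre proliferates and edits its antibody genes under the repressor BCL6, and leaves this state when IRF4 and PRDM1 rise and antibody secretion begins. Lymphomas of the germinal centre type keep much of the former program. EZH2 is the catalytic subunit of PRC2, the complex that methylates H3K27 and keeps target genes silent, and it is highly expressed in germinal centre B cells. Interferon-stimulated genes encode antiviral proteins and are switched on by STAT and IRF factors downstream of interferon receptors. The title of the series concerns EZH2 and these genes, and the baseline libraries show how the lines compare before any inhibitor.

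The line and the library series differ together: the library numbers in the labels run in separate series for the lines, so a difference between the lines and one between the library series cannot be told apart. Several library-wide values moved with the line. The FPKM sum was 372000 to 418300 in KARPAS-422 and 612400 to 630400 in Pfeiffer, and the 10 most abundant genes held 1.93% to 2.12% and 6.35% to 6.69% of it. Protein-coding genes held 82.3% to 83.4% of the sum in KARPAS-422 and 72.4% to 72.9% in Pfeiffer, ribosomal protein genes 4.13% to 5.12% and 11.2% to 12.2%, and processed pseudogenes 10.05% to 11.4% and 16.7% to 17.4%. RN7SL2, the RNA of the signal recognition particle, was at 642, 671 and 589 FPKM in KARPAS-422 and 3179 and 3152 in Pfeiffer (-2.32, but -0.12 and not called after quantile normalization). The part of these differences in the results below was not tested. Replicates were close, with Pearson's r across genes of 0.9935 to 0.9969 in KARPAS-422 and 0.9963 in Pfeiffer, against 0.6342 to 0.6591 between the lines. Whether the libraries of a line are separate cultures is not in the labels, so the p-values cover the spread among libraries, which may be technical.

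A gene was called when it differed by at least 2-fold on the log2(FPKM + 1) scale with an adjusted p under 0.05 (limma with Benjamini-Hochberg adjustment over all 17222 genes). All differences below are KARPAS-422 minus Pfeiffer on that scale, which understates changes of low genes. The lines differed widely: 3905 genes (22.7%) were higher in KARPAS-422 and 4925 (28.6%) higher in Pfeiffer, and 14957 genes (86.85%) passed the adjusted p alone. By at least 4-fold, 1129 and 2088 genes were higher, and by at least 16-fold 159 and 426. Among the 11404 protein-coding genes the order was the other way, with 2864 (25.1%) higher in KARPAS-422 and 2452 (21.5%) higher in Pfeiffer. Their median difference was 0.17, against -0.06 over all genes. Most lists below hold mainly protein-coding genes, for which these shares are the nearer yardstick. The share of calls that fell to KARPAS-422 was 44.2%, but it was 53.8% after quantile normalization and 35.8% after median scaling, with a median shift per gene of 0.15 and -0.21 on the log2 scale. Among protein-coding genes alone that share was 53.9%, and it was 70.02% when these genes were rescaled to a common sum, with a median shift per gene of 0.41. Scalings are named by these terms below, and a gene or list that changes side between them is named as such. List members not matched as protein-coding are absent from the rescaled fit.

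**Figure D1:**
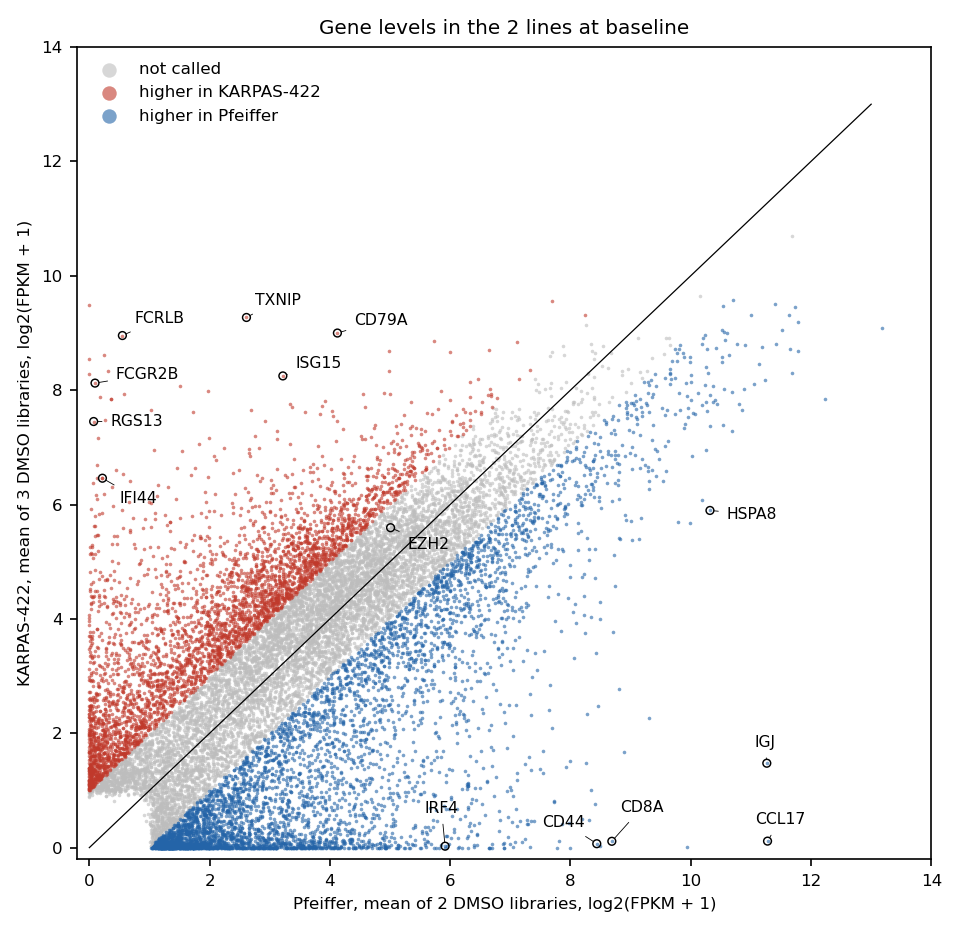
Mean level of each tested gene in the 3 KARPAS-422 libraries (y axis) against the 2 Pfeiffer libraries (x axis), both as log2(FPKM + 1), with genes higher in KARPAS-422 in red, genes higher in Pfeiffer in blue and genes not called in grey. CCL17 and IGJ lie at the far right near 0 in KARPAS-422, and FCRLB and FCGR2B lie at the upper left.

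Single genes differed by far more than 16-fold. CCL17, a chemokine that attracts T cells, was at 0, 0.21 and 0.0479 FPKM in KARPAS-422 and 2513 and 2448 in Pfeiffer (log2 difference -11.16, SE 0.0971, limma adjusted p = 4.02e-08). IGJ, the joining chain of polymeric antibodies, was at 1.35, 2.41 and 1.69 and 2634 and 2296 FPKM (-9.79). CD44, an adhesion receptor for hyaluronan, was at 0.0611, 0.0253 and 0.0609 FPKM in KARPAS-422 and 321 and 372 in Pfeiffer (-8.37). CCL17 and CD44 were at or near 0 and IGJ was low in KARPAS-422, and all 3 were among the abundant transcripts of Pfeiffer. They were picked as furthest apart among called genes with no overlap and at least 10 FPKM in the higher line. The lack of overlap follows from that choice. The enzyme genes CYB5R2, GLUL (glutamine synthetase) and FBP1 (fructose bisphosphatase), the membrane protease gene ST14 and the sialophorin gene SPN were higher in Pfeiffer by 6.93 to 7.69 on the log2 scale.

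In the other direction, FCRLB, an Fc receptor-like protein of B cells, was at 464, 530.4 and 493 FPKM in KARPAS-422 and 0.478 and 0.45 in Pfeiffer (8.40, SE 0.0816, limma adjusted p = 4.02e-08). FCGR2B, the inhibitory Fc receptor of B cells, was at 247, 304 and 285 and 0.106 and 0.0316 FPKM (8.03). MEF2C, a transcription factor of B cells, was at 101, 104 and 102 and 0.0623 and 0.117 FPKM (6.57), and ALOX5, the lipoxygenase of leukotriene synthesis, at 139.5, 145 and 144 and 0.171 and 0.0463 (7.02). These genes were picked by the same rule, so the wide gap between the lines and the lack of overlap follow from the choice. GNG2, SMIM14, C12orf39, IZUMO4, DOK3, PDGFD and MAPK10 completed the upper end, with differences of 6.25 to 8.37. EEF1A1, a translation elongation factor that every cell uses, was listed at 0 in both Pfeiffer libraries and at 283, 345 and 306 FPKM in KARPAS-422. A value of 0 there can be a failed estimate of the quantification, so no fold is given, and 394 genes tested were listed at 0 in every library of 1 line.

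B cell identity genes split, with some members far higher in KARPAS-422. Of 20 tested, 8 were higher in KARPAS-422, 4 higher in Pfeiffer and 8 not called, with a median difference of 0.93 (all genes: -0.06, protein-coding genes: 0.17). EBF1, a pioneer transcription factor of the B lineage, was at 63.5, 60.4 and 61.2 FPKM in KARPAS-422 and 0.233 and 0.395 in Pfeiffer (5.58, SE 0.082, limma adjusted p = 5.07e-08). CD79A, a signalling chain of the B cell receptor, was at 496, 543 and 494 and 15.3 and 17.6 FPKM (4.87). CD22, an inhibitory coreceptor, was at 425, 399 and 411 and 31.5 and 29.7 (3.71). Pfeiffer was low in all of these but not devoid of the last 2. MS4A1, which encodes the CD20 antigen, went the other way, at 138, 178 and 172 FPKM in KARPAS-422 and 993 and 905 in Pfeiffer (-2.55), as did CD79B, the partner chain of CD79A (-1.60, but 0.22 after quantile normalization). The master regulator PAX5 (0.96, but called at 1.24 after quantile normalization) and the pan-B cell antigen CD37, at 336, 355 and 334 and 360.0 and 376 FPKM, were not called. Of these defining B cell genes, EBF1 was under 1 FPKM in both Pfeiffer libraries, while CD79A, CD22, MS4A1 and CD37 were above 1 FPKM in every library of both lines.

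Germinal centre genes lay mostly on the KARPAS-422 side. Of 21 tested, 12 were higher in KARPAS-422, 2 higher in Pfeiffer and 7 not called, with a median of 1.55. RGS13, a regulator of G protein signalling in germinal centre cells, was at 135, 204 and 191 FPKM in KARPAS-422 and 0.0665 and 0.0361 in Pfeiffer (7.38). SERPINA9, a protease inhibitor named for germinal centre expression, was at 22.8, 26.4 and 25.6 and 0.0978 and 0.146 FPKM (4.53), MYBL1 at 71.6, 77.4 and 72.3 and 5.19 and 5.31 (3.58) and the serotonin receptor gene HTR3A at 36.6, 38.6 and 36.4 and 0 and 0.0211 (5.24). RGS13, SERPINA9 and HTR3A passed the filter only through KARPAS-422, so their side was set by it. MME, which encodes the CD10 antigen, was at 34.4, 39.99 and 38.4 FPKM in KARPAS-422 and 9.26 and 8.57 in Pfeiffer (1.96), so that this marker was present in both. BCL6 itself, at 208, 203 and 194 FPKM in KARPAS-422 and 106 and 109 in Pfeiffer (0.90), stayed under the 2-fold minimum, and was called at 1.55 after quantile normalization and 1.35 with protein-coding genes rescaled. The exceptions in the list were GCSAM, a germinal centre signalling adaptor (-2.67), and ASB13 (-2.80), both higher in Pfeiffer and singled out after their values were seen.

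Genes of plasma cells and activated B cells lay on the Pfeiffer side. Of 19 tested, 15 were higher in Pfeiffer, 2 higher in KARPAS-422 (FOXP1 and SDC1) and 2 not called, with a median of -2.62. IRF4, the factor that ends the germinal centre program, was at 0.00523, 0.00808 and 0.0405 FPKM in KARPAS-422 and 56.8 and 62.04 in Pfeiffer (-5.89, SE 0.0809, limma adjusted p = 4.62e-08). BATF, its partner on DNA, was at 0, 0 and 0.0301 and 158 and 160.0 FPKM (-7.31). The survival kinase gene PIM1 was at 1.60, 1.91 and 1.75 and 148 and 154 (-5.79), and TNFRSF17, the plasma cell receptor BCMA, at 3.08, 4.21 and 4.16 and 661 and 606 (-7.05). KARPAS-422 libraries were at or near 0 for IRF4 and BATF, and Pfeiffer libraries were high for all 4 genes. PRDM1, the plasma cell regulator, was called (-1.10) but low in both lines, at 0.0537, 0.0934 and 0.0689 and 1.16 and 1.44 FPKM, and the call was lost after quantile normalization (-0.62) and rescaling of protein-coding genes (-0.94). IRF4, BATF and PRDM1 passed the filter only through Pfeiffer, so their side was set by it. SDC1, the plasma cell surface antigen, was higher in KARPAS-422 (1.89), so the list did not move as a block. TBL1XR1 and ENTPD1 were not called.

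**Figure D2:**
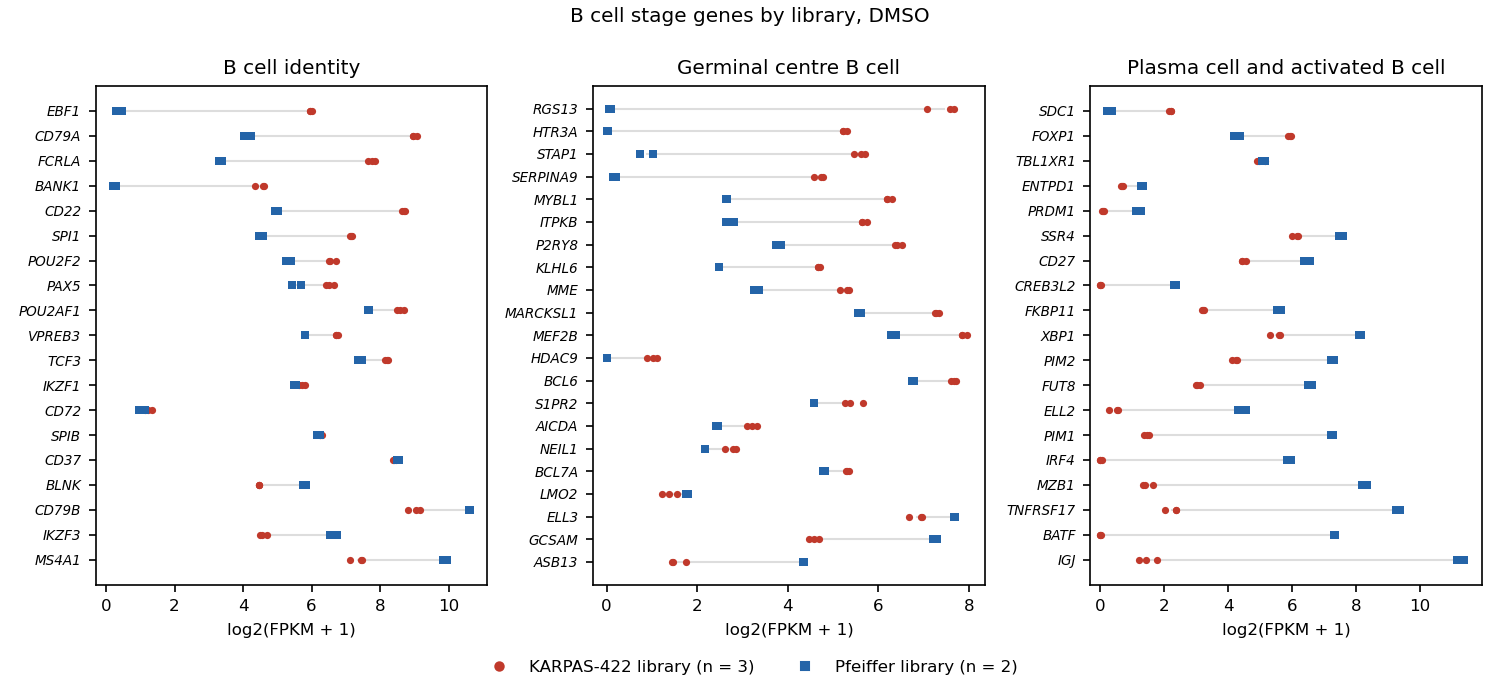
Level of tested genes of the B cell identity (1 of the 20 is not drawn), germinal centre and plasma or activated B cell lists in each library, as log2(FPKM + 1), with red circles for the 3 KARPAS-422 libraries and blue squares for the 2 Pfeiffer libraries, genes sorted by difference within a list. The KARPAS-422 circles lie to the right for the 12 germinal centre genes called higher in that line. The Pfeiffer squares lie to the right for the 15 plasma and activated B cell genes called higher in Pfeiffer. Uncalled genes such as BCL6 can lie apart as well.

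Immunoglobulin constant region genes were far higher in Pfeiffer. Of 14 tested, 12 were higher in Pfeiffer and 1 in KARPAS-422, with a median of -4.16. IGHE, the constant region of the epsilon heavy chain, was at 0.00987, 0.061 and 0 FPKM in KARPAS-422 and 323 and 394 in Pfeiffer (-8.45). The kappa light chain gene IGKC was at 493, 591 and 546 and 8793 and 9803 FPKM (-4.10), and the lambda gene IGLC1 at 0.131, 0.234 and 0.186 and 80.98 and 91.1 (-6.20). The exception was IGHG1, a gamma heavy chain gene, at 152, 147 and 139 FPKM in KARPAS-422 and 64.3 and 73.5 in Pfeiffer (1.07), which was not called after median scaling (0.83) or without Pfeiffer replicate 1 (0.98). IGHM and IGHD were listed at 0 in all 5 libraries. Constant region genes resemble each other and IGLL5 shares sequence with the lambda locus, so values of single members are uncertain. IGLL5 was at 0.469, 0.269 and 0.504 and 306 and 277 FPKM.

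Signalling components downstream of the B cell receptor were more often higher in KARPAS-422, at 11 of 24 with 4 higher in Pfeiffer (median 0.85). PTPN6, the phosphatase SHP1 that inhibitory receptors recruit, was at 128, 139 and 132 FPKM in KARPAS-422 and 2.74 and 2.38 in Pfeiffer (5.24). RASGRP1, an activator of RAS, was at 49.9, 53.00 and 49.9 and 1.45 and 1.63 (4.36). Among SRC family kinases FYN (3.01), BLK (2.86) and LCK (2.02) were higher in KARPAS-422 and LYN (-2.12) was higher in Pfeiffer. The adaptor gene LAT2 was higher in Pfeiffer (-3.85), while SYK, the proximal kinase, was at 99.9, 101 and 102 and 121 and 120.5 FPKM and PLCG2, the phospholipase that acts after it, differed by 0.49, neither called. 

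Cytokine and chemokine genes, including receptors, were mostly higher in Pfeiffer, at 20 of 27 with 5 higher in KARPAS-422 (median -2.98). CXCR4, the receptor that directs B cells to the dark zone of the germinal centre, was at 0.414, 0.414 and 0.298 FPKM in KARPAS-422 and 168 and 166 in Pfeiffer (-6.93). GPR183, an oxysterol receptor of migrating B cells, was at 0.0492, 0 and 0.0693 FPKM in KARPAS-422 and differed by -6.64, and IL2RA, a cytokine receptor chain, was listed at 0 in KARPAS-422 and at 76.4 and 79.4 FPKM in Pfeiffer. CCR7, the homing receptor for lymph nodes, was at 0.0804, 0.236 and 0.333 and 12.5 and 14.2 FPKM (-3.56). CXCR4, GPR183, IL2RA and CCR7, like CCL17 of the same list, passed the filter only through Pfeiffer, so their side was set by it. IL4R (-4.82), IL21R (-5.10) and IL6R (-4.50), receptor genes singled out after their values were seen, were higher in Pfeiffer as well. On the other side, LTA, which encodes lymphotoxin alpha and was also singled out, was at 252, 263 and 239.7 FPKM in KARPAS-422 and 2.98 and 2.90 in Pfeiffer (6.003), and TNF, a related cytokine, differed by 3.41. CCL3 and TGFB1 were not called.

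Surface antigens and costimulatory molecules had 12 of 23 members higher in Pfeiffer and 6 higher in KARPAS-422 (median -1.002). CD83, a marker of activated B cells, was at 0.35, 0.436 and 0.417 FPKM in KARPAS-422 and 318 and 314 in Pfeiffer (-7.82). CD40, the receptor for T cell help, was at 2.30, 2.08 and 2.44 and 99.9 and 108 (-5.00). In contrast CD180, a Toll-like receptor homologue, was at 54.4, 57.1 and 57.3 and 0.128 and 0.104 (5.68), and TNFRSF13C, the receptor for the survival factor BAFF, at 38.9, 36.97 and 34.3 and 1.46 and 1.66 (3.88). CD46 and CD63 were not called.

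Adhesion genes were found on both sides, with 7 of 15 higher in Pfeiffer and 4 higher in KARPAS-422 (median -0.82). The latter count lay near the share of protein-coding genes higher in KARPAS-422 (25.1%, against 21.5% higher in Pfeiffer). ICAM1, a ligand of integrins, was at 0.164, 0.166 and 0.213 FPKM in KARPAS-422 and 47.04 and 48.5 in Pfeiffer (-5.37). The integrin subunit genes ITGB2, at 193, 202 and 191 and 2.06 and 2.60 FPKM (5.88), and ITGA4, at 47.9, 50.4 and 46.5 and 0.0828 and 0.0492 (5.53), were higher in KARPAS-422. ITGAL, whose product pairs with that of ITGB2, was higher in Pfeiffer (-5.70), so each line was low in 1 subunit of that integrin. ITGB7 and ARHGAP25 were not called.

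NF-kappaB genes had 4 of 21 members higher in KARPAS-422, near the share over protein-coding genes (25.1%), and 10 higher in Pfeiffer (share 21.5%, median -0.24). The subunit genes RELB (-3.14), NFKB2 (-3.02) and REL (-2.95) and the feedback inhibitor gene NFKBIA (-1.96) were among the latter. BCL3, an atypical inhibitor protein, was at 0.0635, 0.0526 and 0.0781 FPKM in KARPAS-422 and 16.8 and 21.7 in Pfeiffer (-4.24), and NFKBIZ differed by -4.04. RELA, the main activating subunit, was at 26.3, 23.6 and 24.1 and 24.8 and 31.1 FPKM with overlapping lines and was not called (limma adjusted p = 0.198). TNIP1 was not called either.

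Interferon-stimulated genes stood higher in KARPAS-422 before any inhibitor. Of the 75 listed, 62 were tested, and 37 of these were higher in KARPAS-422, 7 higher in Pfeiffer and 18 not called, with a median difference of 2.00. ISG15, a ubiquitin-like protein, was at 249.5, 355 and 314 FPKM in KARPAS-422 and 8.05 and 8.57 in Pfeiffer (5.03, SE 0.151, limma adjusted p = 4.08e-07). IFI44, an interferon-induced protein of the cytoplasm, was at 70.6, 100.3 and 93.05 and 0.146 and 0.18 FPKM (6.24). DTX3L, a ubiquitin ligase that works with PARP9, was at 70.8, 64.5 and 61.1 and 0.803 and 1.22 (5.05), and PARP9 itself differed by 3.28. All KARPAS-422 libraries were above both Pfeiffer libraries in these genes. IFI44 and DTX3L were picked for a large difference or a small adjusted p, so their separation follows from the choice. TRIM22, an antiviral ubiquitin ligase, was at 50.7, 58.1 and 55.5 and 2.45 and 2.09 FPKM (4.09), SAMD9L, an antiviral effector, at 17.4, 18.9 and 19.1 and 0.651 and 0.595 (3.58), and LAMP3, a lysosomal membrane protein, at 43.3, 45.7 and 39.4 and 0.397 and 0.256 (5.04). IFI44, SAMD9L and LAMP3 passed the filter only through KARPAS-422, so their side was set by it.

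The list was not uniform. LY6E (-3.13), the RNA sensor gene IFIH1 (-2.38), the tetherin gene BST2 (-1.65), the cytidine deaminase genes APOBEC3G (-1.65) and APOBEC3F (-1.18), IFIT5 (-1.64) and RNF213 (-1.43) were higher in Pfeiffer, all named because they are the exceptions. APOBEC3F was no longer called after quantile normalization (-0.73) or with protein-coding genes rescaled (-0.97). IFIH1 was at 0.589, 0.731 and 0.991 FPKM in KARPAS-422 and 8.17 and 8.23 in Pfeiffer, and BST2 at 45.3, 56.2 and 54.1 and 167 and 161. Within the IFIT family IFIT1 (1.62) and IFIT3 (2.18) were higher in KARPAS-422 and IFIT5 was not, and MX1 (2.69) was higher in KARPAS-422 while MX2 (-0.72) was not called. ADAR, the RNA editing enzyme, and SP100, a nuclear body protein, were at 128, 121 and 117 and 114, 116 and 116 FPKM in KARPAS-422 and 79.1 and 83.5 and 58.9 and 56.7 in Pfeiffer, neither called. The count of 37 against 7 was 37 against 9 after median scaling, 41 against 6 after quantile normalization and 44 against 6 with protein-coding genes rescaled.

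**Figure D3:**
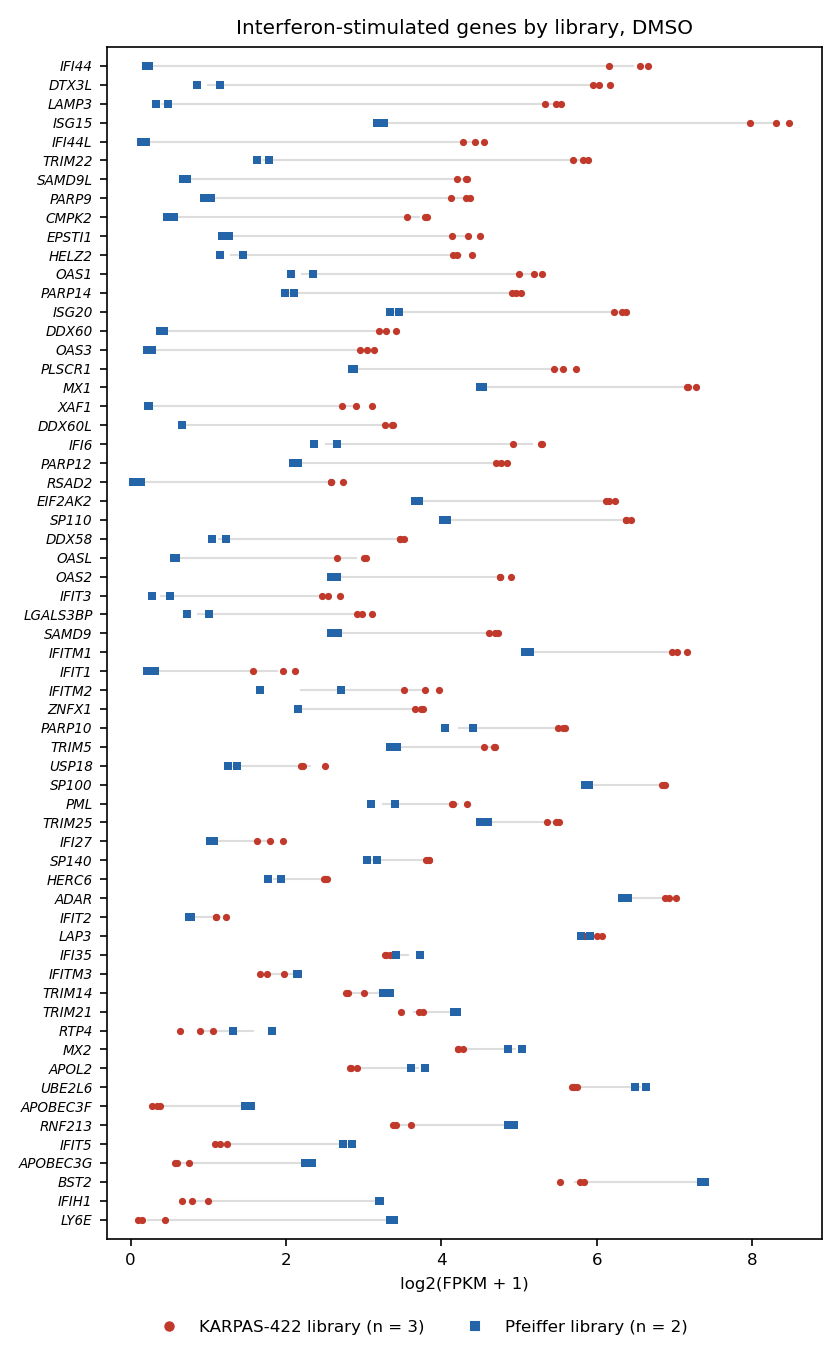
Level of the 62 tested interferon-stimulated genes in each of the 5 DMSO libraries, as log2(FPKM + 1), sorted by the difference between the lines, with red circles for KARPAS-422 (n = 3) and blue squares for Pfeiffer (n = 2). Red circles lie to the right of blue squares for the 37 genes higher in KARPAS-422 in the upper part, and the order is reversed for the 7 at the bottom.

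Promoter sequences were read to show what genes on either side share. The sequence that STAT and IRF factors bind in these genes holds a repeated GAAA core, and GAAANNGAAA was searched on both strands in promoters of RefSeq genes (GRCh38.p14, from 250 bases before to 50 after the start). The motif was in 993 of 27195 promoters (3.65%) and in 30 of the 47 tested interferon-stimulated genes with a promoter entry. It was in 21 of 30 such genes higher in KARPAS-422, 3 of 4 higher in Pfeiffer and 6 of 13 not called. A match describes the letters only, and overlapping matches were counted apart. The stretches below hold the matches in capitals, on either strand, for 2 genes higher in KARPAS-422 (ISG15, chr1:1013357-1013426, + strand; IFI44, chr1:78649719-78649788, + strand) and 2 higher in Pfeiffer (BST2, chr19:17405718-17405787, - strand; IFIH1, chr2:162318696-162318843, - strand), with 2, 1, 2 and 3 matches.
ISG15: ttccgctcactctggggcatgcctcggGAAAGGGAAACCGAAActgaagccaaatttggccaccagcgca
IFI44: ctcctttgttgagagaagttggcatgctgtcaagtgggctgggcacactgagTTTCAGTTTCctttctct
BST2: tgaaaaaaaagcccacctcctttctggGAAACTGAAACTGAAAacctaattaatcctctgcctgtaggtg
IFIH1: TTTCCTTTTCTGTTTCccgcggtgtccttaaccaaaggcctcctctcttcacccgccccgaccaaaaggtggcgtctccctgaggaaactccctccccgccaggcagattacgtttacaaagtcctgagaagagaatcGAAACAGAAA

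Genes upstream of that response were counted next. Of 24 interferon receptor, JAK, STAT and IRF genes, 8 were higher in KARPAS-422 and 6 higher in Pfeiffer (median 0.25). The shares were 22.7% and 28.6% over all genes and 25.1% and 21.5% over protein-coding genes, so this list lay near them. IRF9, the DNA-binding subunit of the complex that STAT2 joins, was at 74.4, 90.97 and 86.03 FPKM in KARPAS-422 and 18.3 and 19.8 in Pfeiffer (2.08, SE 0.103, limma adjusted p = 3.12e-06), and IRF7, which drives interferon genes, at 58.04, 65.4 and 63.00 and 6.45 and 5.17 (3.22). STAT2 was at 34.5, 31.7 and 31.1 and 26.3 and 25.9 FPKM (0.30) and was not called. IRF9, IRF7 and STAT2 were named after their values were seen. STAT5A (2.97) and STAT5B (2.89) were higher in KARPAS-422, whereas STAT3 (-2.28), the kinase genes JAK1 (-2.85) and JAK3 (-1.66), IRF5 (-2.61) and the feedback inhibitor gene SOCS3, listed at 0 in KARPAS-422 and at 10.6 and 10.7 FPKM in Pfeiffer, were higher in Pfeiffer. IRF3 and IRF8 were not called.

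Nucleic acid sensors had 9 of 20 members higher in KARPAS-422 and 2 higher in Pfeiffer (median 0.87). TLR3, a sensor of double-stranded RNA, was at 4.87, 4.99 and 5.27 FPKM in KARPAS-422 and listed at 0 in Pfeiffer. TLR6, a receptor for bacterial lipopeptides, was at 18.4, 18.5 and 18.4 and 1.43 and 1.48 FPKM (2.98). AIM2, a sensor of cytosolic DNA, was at 0.193, 0.113 and 0.0747 and 31.9 and 32.7 (-4.89) and the kinase gene IKBKE at 9.33, 8.72 and 8.82 and 39.1 and 40.3 (-2.03), these 2 being higher in Pfeiffer. IFI16 and IRAK1 were not called.

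Antigen presentation differed mainly in class II. Of 19 MHC class II genes, 11 were higher in Pfeiffer and 1, HLA-DOB, in KARPAS-422 (median -1.67). HLA-DPA1 was at 151, 176 and 174 FPKM in KARPAS-422 and 1512 and 1470 in Pfeiffer (-3.16), HLA-DPB1 at 50.2, 52.3 and 51.3 and 503 and 519 (-3.29), and HLA-DOA, a modulator of peptide loading, at 4.09, 5.43 and 5.33 and 65.7 and 64.8 (-3.48). CIITA, the transcriptional master regulator of class II, was at 18.7, 15.4 and 16.8 and 68.2 and 74.8 FPKM (-2.02) and was singled out after its values were seen. Of 21 MHC class I genes, 4 were higher in KARPAS-422 and 6 in Pfeiffer, with a median of -0.01. That split lay near the shares over all genes (22.7% and 28.6%). Protein-coding genes, the nearer yardstick, had shares of 25.1% and 21.5%. The order of the class I counts turned to 9 against 6 after quantile normalization and 7 against 5 with protein-coding genes rescaled. B2M, the light chain of class I, was at 1374, 1930 and 1694 FPKM in KARPAS-422 and 3444 and 3154 in Pfeiffer, just under the 2-fold minimum (-0.9975, but 1.30 after quantile normalization), and HLA-B at 430.4, 521 and 493 and 739 and 799, not called (0.89 after quantile normalization). ERAP2, a peptide-trimming enzyme, was higher in KARPAS-422 (3.10), and HLA-F (-3.58), HLA-G (-2.54) and the chaperone gene CALR (-2.51) were higher in Pfeiffer. HLA genes are polymorphic and alike in sequence, so their values are uncertain.

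EZH2 mRNA differed by less than 2-fold. It was at 44.4, 48.7 and 49.05 FPKM in KARPAS-422 and 31.6 and 30.8 in Pfeiffer (0.59, SE 0.0759, limma adjusted p = 3.30e-04). With protein-coding genes rescaled the difference of 1.02 was called. The lines did not overlap, but this also held for other uncalled genes, such as ACTB, BAX and SYK, and does not set EZH2 apart. Of 16 PRC2 and H3K27 enzyme genes, 8 were higher in KARPAS-422 and 3 higher in Pfeiffer (median 1.06). The core subunit gene SUZ12 was at 48.4, 53.1 and 49.5 and 27.2 and 25.01 FPKM and was not called, while EED, another core subunit, differed by 1.55 and EZH1, the paralogue of EZH2, by 1.30, both named after their values were seen. KDM6B, which removes the mark, was at 56.4, 44.8 and 46.3 FPKM in KARPAS-422 and 1.30 and 1.58 in Pfeiffer (4.36), and its relative KDM6A at 30.4, 31.96 and 31.5 and 12.4 and 12.5 (1.26). CREBBP, which acetylates the same residue, was at 73.8, 61.9 and 58.9 and 9.89 and 10.8 (2.53), and PHF1, an accessory subunit, at 52.9, 52.4 and 48.3 and 5.55 and 6.02 (2.94). The histone-binding subunit genes RBBP4 (-1.37) and RBBP7 (-1.08) and the accessory subunit gene PHF19 (-1.27) were higher in Pfeiffer, and none of these 3 was called with protein-coding genes rescaled (-0.93, -0.64 and -0.83).

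Of 21 genes of PRC1, the partner complex, 9 were higher in KARPAS-422 and 4 higher in Pfeiffer (median 0.87). PHC3, a subunit, was at 32.7, 27.6 and 28.4 FPKM in KARPAS-422 and 5.97 and 5.75 in Pfeiffer (2.15), and SCMH1 differed by 1.79. PCGF5 was higher in Pfeiffer (-2.21), and RING1 and KDM2B were not called. Only 24 of 61 developmental transcription factors, a class that PRC2 often silences, passed the filter on low values, and 37 did not. Of the 24, 7 were higher in KARPAS-422 and 6 in Pfeiffer, near the shares over protein-coding genes (25.1% and 21.5%). All genes together had shares of 22.7% and 28.6%. The split of the 24 was 6 against 6 after median scaling. HOXA10 was at 0, 0.0549 and 0.0232 FPKM in KARPAS-422 and 11.1 and 10.6 in Pfeiffer (-3.52). HOXA7 of the same gene cluster was at 12.9, 12.9 and 13.6 and 0.0774 and 0.111 (3.69). Each of the lines was near 0 in 1 of these genes. HOXA9, also of the cluster, was below the filter, listed at 0 in KARPAS-422 and at 0.11 and 0.0812 FPKM in Pfeiffer. FOXC1 was listed at 0 in KARPAS-422 and at 3.06 and 3.28 FPKM in Pfeiffer, and HHEX differed by 3.40. HOXB7 and MEIS2 were not called.

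Among G1 control genes, 7 of 25 were higher in KARPAS-422 and 2 higher in Pfeiffer (median -0.11). The shares over protein-coding genes were 25.1% and 21.5%, so the KARPAS-422 count lay near its share. MDM2, a ubiquitin ligase, was at 10.3, 9.58 and 9.60 FPKM in KARPAS-422 and 28.3 and 27.5 in Pfeiffer (-1.42, and not called at -0.99 with protein-coding genes rescaled). CDKN1B, an inhibitor of G1 kinases, was at 32.7, 37.5 and 36.8 and 6.26 and 5.73 (2.39). CDKN2A, which encodes an inhibitor of CDK4 and CDK6, was at 47.6, 76.95 and 77.3 and 30.6 and 24.2 FPKM (1.24, SE 0.23), with a wide spread in KARPAS-422. Without Pfeiffer replicate 2 it was not called (1.08). CDK4 and E2F4 were not called.

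Apoptosis regulators differed in which survival gene was high. BCL2 was at 91.8, 86.5 and 89.1 FPKM in KARPAS-422 and 22.6 and 24.9 in Pfeiffer (1.86), whereas its relative BCL2A1 was at 0.696, 0.767 and 0.629 and 364 and 317 (-7.65). BIRC3, an inhibitor of apoptosis, was at 0.293, 0.348 and 0.528 and 142 and 143 (-6.70), and the death effector gene BCL2L11 at 17.5, 17.2 and 16.2 and 77.2 and 81.96 (-2.17). APAF1, the scaffold of the apoptosome, was higher in KARPAS-422 (2.46), and MCL1, at 184, 201 and 198 and 128 and 131 FPKM, and BAX were not called. Over the list, 6 of 29 were higher in KARPAS-422 and 8 in Pfeiffer, near the shares over all genes (22.7% and 28.6%). Protein-coding genes, the nearer yardstick, had shares of 25.1% and 21.5%. The count for the list became 8 against 8 after quantile normalization and 12 against 6 with protein-coding genes rescaled.

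Of 38 genes recurrently altered in B cell lymphoma, 17 were higher in KARPAS-422 and 8 higher in Pfeiffer (median 0.50). Beside CREBBP they included KMT2D, a methyltransferase of enhancers, at 39.6, 31.2 and 31.8 FPKM in KARPAS-422 and 3.56 and 3.77 in Pfeiffer (2.91), and P2RY8, a receptor that confines germinal centre B cells, at 90.96, 84.5 and 82.1 and 12.3 and 13.5 (2.64). SGK1, a kinase, was at 0.444, 0.308 and 0.174 and 32.5 and 31.6 (-4.67), and ETV6, a transcriptional repressor, at 0.639, 0.675 and 0.418 and 16.2 and 15.4 (-3.42). RHOA was not called.

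Growth and metabolic genes lay on the Pfeiffer side, as did the ribosomal protein share given above. Of 44 replication and mitosis genes, 20 were higher in Pfeiffer and 0 in KARPAS-422 by limma, with a median of -0.89; 9 had an unadjusted p under 0.05 in the KARPAS-422 direction. MCM4, a subunit of the replicative helicase, was at 32.2, 31.9 and 31.00 FPKM in KARPAS-422 and 311 and 320.3 in Pfeiffer (-3.28), the licensing factor gene CDC6 at 5.69, 5.47 and 6.11 and 49.8 and 47.00 (-2.87), the helicase cofactor gene GINS2 at 4.95, 6.38 and 5.89 and 54.5 and 56.7 (-3.08) and the checkpoint kinase gene CHEK1 at 10.4, 9.64 and 10.3 and 55.2 and 52.6 (-2.31). TOP2A, a topoisomerase of dividing cells, was not called, at 72.3, 79.2 and 77.2 and 122 and 114 FPKM. With protein-coding genes rescaled the count was 14 against 2.

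Of 23 cholesterol biosynthesis genes, 15 were higher in Pfeiffer and 1, SREBF2, in KARPAS-422 (median -1.53). SREBF2, the transcription factor of the pathway (1.02), fell just under 2-fold without KARPAS-422 replicate 1 (0.99) or Pfeiffer replicate 1 (0.9988) and was at 0.78 after median scaling. SQLE, squalene epoxidase, was at 22.1, 23.01 and 23.3 FPKM in KARPAS-422 and 103 and 98.1 in Pfeiffer (-2.09), DHCR7, the last reductase of the pathway, at 10.3, 9.85 and 10.9 and 54.9 and 59.4 (-2.36), EBP at 12.9, 13.6 and 12.1 and 78.5 and 87.4 (-2.60) and the sterol sensor gene INSIG1 at 16.99, 16.9 and 17.3 and 71.5 and 74.1 (-2.03). IDI1 and PMVK were not called. Among heat shock and stress genes 14 of 21 were higher in Pfeiffer and 2 in KARPAS-422 (median -1.66). HSPA8, the constitutive chaperone, was at 50.4, 62.4 and 63.9 and 1258 and 1296 FPKM (-4.42) and HMOX1, heme oxygenase, at 0.413, 0.567 and 0.625 and 12.4 and 13.2 (-3.17). TXNIP, an arrestin that restrains glucose uptake, was the reverse, at 579.8, 649.5 and 623 FPKM in KARPAS-422 and 4.73 and 5.53 in Pfeiffer (6.66).

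Glycolysis genes had 12 of 25 members higher in Pfeiffer and 4 higher in KARPAS-422 (median -0.85). LDHA, lactate dehydrogenase, was at 77.5, 90.4 and 86.2 FPKM in KARPAS-422 and 751 and 733 in Pfeiffer (-3.12), GPI at 26.7, 25.4 and 25.2 and 140.2 and 168 (-2.53) and the fructose transporter gene SLC2A5 at 0.0407, 0.279 and 0.123 and 121 and 126 (-6.76). HK2, a hexokinase, was higher in KARPAS-422 (2.13). MYC was at 96.8, 110.0 and 98.5 FPKM in KARPAS-422 and 73.3 and 78.1 in Pfeiffer (0.42) and was not called. In the MYC network and ribosome biogenesis list 3 of 25 were higher in KARPAS-422 and 7 in Pfeiffer (median -0.53), a split that was 3 against 3 after quantile normalization and 4 against 3 with protein-coding genes rescaled. MXD1, an antagonist of MYC, was at 25.6, 23.4 and 23.6 and 0.795 and 0.714 FPKM (3.85), MAX differed by 1.27, and the nucleolar genes NOLC1 (-1.35) and DKC1 (-1.20) were higher in Pfeiffer, though not called with protein-coding genes rescaled (-0.91 and -0.76).

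**Figure D4:**
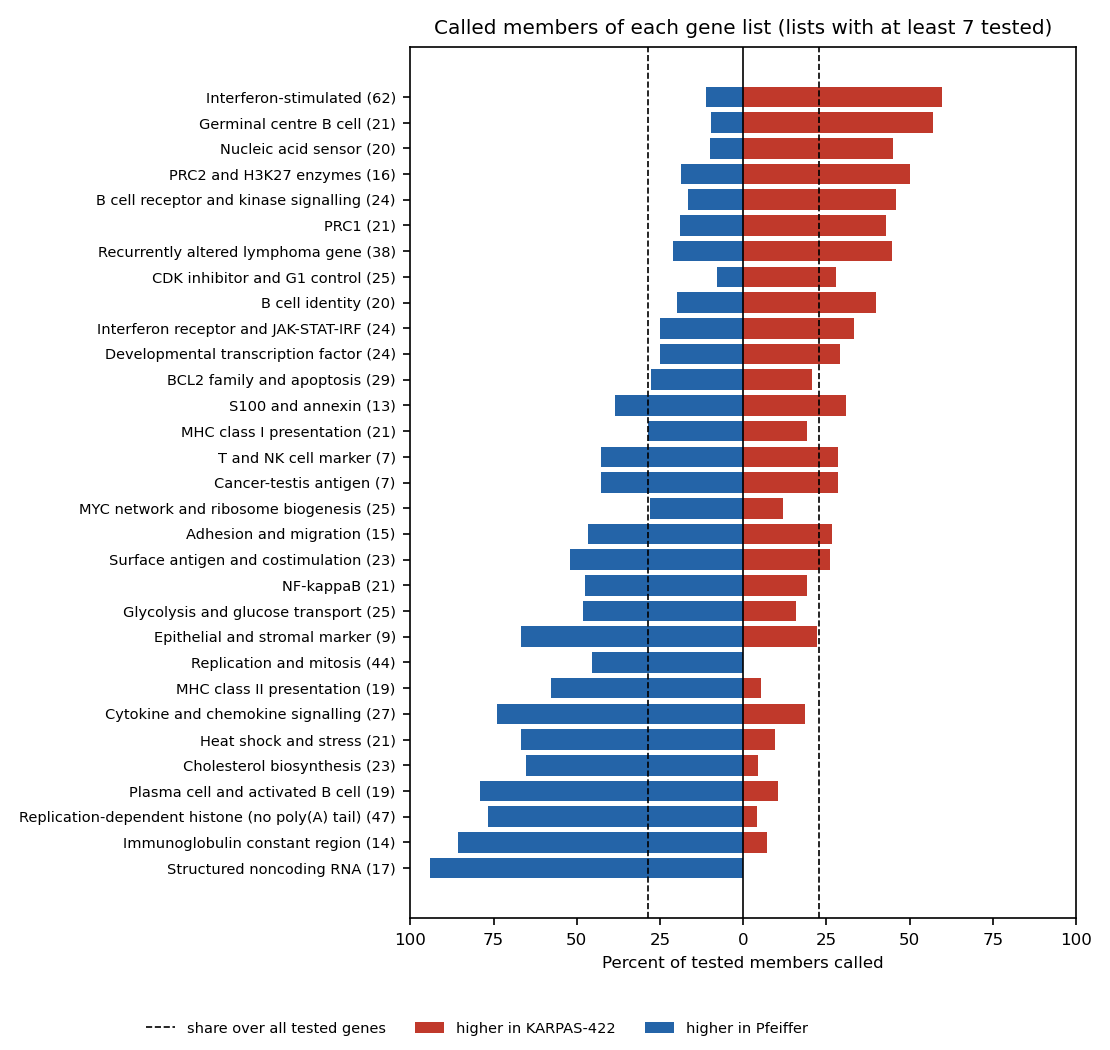
Percent of the tested members of each gene list that were higher in KARPAS-422 (red, to the right) and higher in Pfeiffer (blue, to the left), with the number tested in brackets and dashed lines at the shares over all tested genes, 22.7% and 28.6%. Over protein-coding genes alone the shares are 25.1% and 21.5%. Interferon-stimulated and germinal centre genes reach furthest to the right, and immunoglobulin, structured RNA, plasma cell, histone and cytokine genes furthest to the left.

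Markers of other lineages were mostly below the filter, with single genes high in 1 line. Of 22 T and NK cell markers found, 15 were below it and 7 were tested, 2 higher in KARPAS-422 and 3 in Pfeiffer (shares over protein-coding genes: 25.1% and 21.5%). The sum of the list was 86.3 to 95.3 FPKM in KARPAS-422 and 490.5 to 493 in Pfeiffer. CD8A was at 0.0762, 0.11 and 0.0544 FPKM in KARPAS-422 and 411 and 412 in Pfeiffer (-8.58) and CD8B was listed at 0 and at 6.82 and 7.80, while CD3G was at 35.3, 34.7 and 33.96 and 0.0374 and 0.00787 (5.12). CD2 was listed at 0 in all 5 libraries, and CD3E, CD3D and NKG7 were at most 1.30 FPKM in any of them. Other tested members were present in Pfeiffer, with CD247, a signalling chain, at 36.4, 46.4 and 46.1 FPKM in KARPAS-422 and 59.1 and 60.2 in Pfeiffer (not called) and the kinase gene ZAP70 at 0.0836, 0 and 0 and 8.80 and 7.86 (-3.18). Of 19 epithelial and stromal markers found, 9 were tested, with 2 higher in KARPAS-422 and 6 in Pfeiffer and sums of 216 to 260.1 and 150.1 to 152 FPKM. EPCAM, an epithelial adhesion molecule, was at 0.0557, 0.0573 and 0.0876 FPKM in KARPAS-422 and 134 and 135 in Pfeiffer (-6.99) and DCN, a matrix proteoglycan, at 206, 250.3 and 234 and 0.24 and 0.337 (7.48), with KRT19 listed at 0 in all 5. Of 17 myeloid markers 15 were below the filter, the sums were 3.18 to 3.47 and 7.71 to 9.50 FPKM, and CD33 and TYROBP were the 2 tested.

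Among other lists, 7 of 30 cancer-testis antigens found were tested. SSX1 (47.6 and 47.2 FPKM in Pfeiffer) and CT45A1 (32.2 and 29.4) were at most 0.0215 in KARPAS-422. MAGEA1 (16.3, 19.5 and 19.8 FPKM in KARPAS-422) and CTCFL (8.19, 7.26 and 7.81) were at most 0.03 in Pfeiffer. These members passed the filter only through the line where they were high and were picked by smallest adjusted p, so their pattern was selected. STAG3, at 1.96, 2.55 and 2.10 FPKM in KARPAS-422 and 3.78 and 3.50 in Pfeiffer, and PRAME were tested and not called. The 23 members below the filter reached at most 0.745 FPKM. Of 13 S100, annexin and related genes, 4 were higher in KARPAS-422 and 5 in Pfeiffer, which was 5 against 3 with protein-coding genes rescaled. For so short a list, the shares over protein-coding genes (25.1% and 21.5%) are not far from this. S100A11 was at 53.2, 51.3 and 53.7 FPKM in KARPAS-422 and 1.24 and 1.03 in Pfeiffer (4.65) and ANXA6 at 95.6, 101 and 99.03 and 1.94 and 2.87 (4.89), while ANXA2 was at 0.398, 0.797 and 0.501 and 19.4 and 18.3 (-3.67). The most abundant genes that were not called were B2M, RPL28, RP5-940J5.9, SERF2, HLA-B and the actin gene ACTB, the last at 832, 822 and 737 and 1039 and 1238 FPKM. All 6 were higher in Pfeiffer libraries than in KARPAS-422 libraries, and all 6 turned to the KARPAS-422 side after quantile normalization.

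Gene classes did not share 1 direction. Of 2949 processed pseudogenes, 263 were higher in KARPAS-422 and 1573 in Pfeiffer (median -1.10), of 63 snoRNA genes 1 and 58, and of 79 ribosomal protein genes 1 and 70 (median -1.83). Histone genes of the replication-dependent kind, which end in a stem-loop and not in a poly(A) tail, had 36 of 47 members higher in Pfeiffer and 2 higher in KARPAS-422. That count fell to 5 of those with at least 5 FPKM and to 12 with protein-coding genes rescaled. Both settings also drop members, those under the filter and those not matched as protein-coding, such as HIST1H2AJ, HIST1H2BG and HIST1H2BH. The fall is therefore not a count of lost calls alone. RMRP, the RNA of a mitochondrial RNA processing enzyme, was at 3.17, 1.79 and 1.00 FPKM in KARPAS-422 and 297 and 214 in Pfeiffer (-6.47) and the spliceosomal RNU1-1 at 1.56, 0.944 and 0.927 and 101 and 59.00 (-5.20). Both varied widely among the KARPAS-422 libraries with CPI-169, RMRP at 38.9, 0.866 and 3.41 FPKM and RNU1-1 at 20.1, 0.797 and 4.56. The part of such spread between libraries in the baseline difference was not tested. Of 17 structured RNAs 16 were higher in Pfeiffer and 0 in KARPAS-422 by limma, and 0 had an unadjusted p under 0.05 in the KARPAS-422 direction. Other classes had more members higher in KARPAS-422, with 31 of 63 intronic sense transcripts against 3 in Pfeiffer (median 0.98), 15 against 5 of 31 sense-overlapping transcripts, 90 against 48 of 251 transcribed unprocessed pseudogenes and 51 against 30 of 138 processed transcripts. The 448 lincRNA genes, with 129 against 119 (28.8% and 26.6%), lay near the shares over all genes (22.7% and 28.6%). How libraries were selected for poly(A) is not given in the sources used here, and these classes cannot be told apart from the library series.

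Some differences fell in blocks along the genome (hg19). Among protein-coding genes, 50 were at 5 FPKM or more in all KARPAS-422 libraries and under 0.1 in both Pfeiffer libraries, and 181 the reverse. Adjacent genes of that kind formed 2 blocks, both lacking in KARPAS-422. The first, on chromosome 9 from 111934254 to 112934792, held EPB41L4B, the phosphatase gene PTPN3 (listed at 0 in KARPAS-422 and at 29.2 and 30.04 FPKM in Pfeiffer), PALM2 and PALM2-AKAP2. The second, on chromosome 13 from 103436630 to 103524748, held KDELC1 (listed at 0 and at 8.69 and 8.51 FPKM), BIVM and BIVM-ERCC5. Readthrough genes share reads with their neighbours, so these are not independent members. RL was at or near 0 in all of them too, with at most 0.245 FPKM.

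Over windows of the genome with at least 20 tested protein-coding genes, median differences ran from -1.25 to 1.66, against 0.17 over all protein-coding genes. On chromosome 17 from 1 to 10000000, 81 of 140 genes were higher in KARPAS-422 and 8 higher in Pfeiffer (median 1.24). On chromosome 8 from 30000001 to 40000000 the count was 22 and 1 of 29 (1.66) and on chromosome 14 from 50000001 to 60000000 it was 32 and 2 of 55 (1.23), with 179 and 57 of 397 over the whole of chromosome 14. In contrast, on chromosome 11 from 110000001 to 120000000, 9 of 67 genes were higher in KARPAS-422 and 35 in Pfeiffer (-1.25). Copy number was not measured here, and these are descriptions without a test.

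RL, the third line, had no fixed side. Of 2863 protein-coding genes higher in KARPAS-422, RL lay nearer to KARPAS-422 for 44.8% and nearer to Pfeiffer for 55.2%, and of 2450 higher in Pfeiffer it lay nearer to KARPAS-422 for 58.9%. CD79A was at 431 and 445 FPKM in RL and RGS13 at 152 and 154, near KARPAS-422, and IRF4, at 0.129 and 0.209, was near 0 in RL as in KARPAS-422. For IFI44, at 4.44 and 2.92 FPKM, and ISG15, at 60.4 and 41.4, RL lay between the lines.

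The line difference was then read in the inhibitor-treated libraries, 3 of KARPAS-422 with CPI-169 against 2 of Pfeiffer with GSK343, which share no library with the baseline but belong to the same library series of their line. There 3162 genes (18.4%) were higher in KARPAS-422 and 3695 (21.5%) in Pfeiffer. Of 8822 genes called at baseline and measured in these libraries, 8573 (97.2%) had the same direction and 5851 (66.3%) were called the same way. The 2 GSK343 libraries stood apart from each other, and the number called the same way was 5506 without the GSK343 replicate 1 and 6109 without replicate 2. Germinal centre genes (12 higher in KARPAS-422 and 0 in Pfeiffer of 20 by limma, with 1 at an unadjusted p under 0.05 in the Pfeiffer direction), plasma and activated B cell genes (1 and 13 of 19) and interferon-stimulated genes (47 and 2 of 62) kept their side. IFI44 averaged 461 FPKM in the CPI-169 libraries and was at 12.4 and 0.703 in the GSK343 libraries. FCRLB and CD44 also kept their side, at 447, 450.4 and 471 and 0.0164, 0.0932 and 0.11 FPKM in the CPI-169 libraries and 0.644 and 1.25 and 724 and 821 in the GSK343 libraries.

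In some lists the order of the counts turned. Replication and mitosis genes, with 0 higher in KARPAS-422 and 20 in Pfeiffer at baseline, had 17 and 1 of 44 under inhibitors, and cholesterol biosynthesis genes, with 1 and 15 at baseline, had 6 and 2 of 23. Smaller turns were seen in the lists of the MYC network (3 and 7, then 5 and 4 of 25), MHC class I (4 and 6, then 7 and 6 of 21) and S100 and annexin genes (4 and 5, then 5 and 4 of 13). These rest on few calls, and the same lists changed order at baseline with the scaling alone, as given above. Among single genes, 19 were called in opposite directions. PCNA, the sliding clamp of DNA polymerases, was at 49.9, 63.7 and 56.9 FPKM in KARPAS-422 and 164 and 156 in Pfeiffer with DMSO, and at 81.6, 75.4 and 78.8 with CPI-169 and 48.1 and 30.03 with GSK343. TYMS, thymidylate synthase, differed by -1.02 at baseline and 1.74 under inhibitors, the licensing factor gene CDT1 by -2.33 and 1.23, the cholesterol gene HMGCS1 by -1.07 and 1.12 and SCD, a fatty acid desaturase, by -1.36 and 1.38. The baseline calls of TYMS, HMGCS1 and SCD were lost with protein-coding genes rescaled (-0.58, -0.63 and -0.92), and that of TYMS also without KARPAS-422 replicates 1 (-0.98) or 3 (-0.99). RGCC, a cell cycle regulator, differed by -3.23 and 1.58. These genes were named after their values were seen, the inhibitors were not the same at a like dose of 1.5 µM, and the change of the line difference between conditions was not tested.

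**Figure D5:**
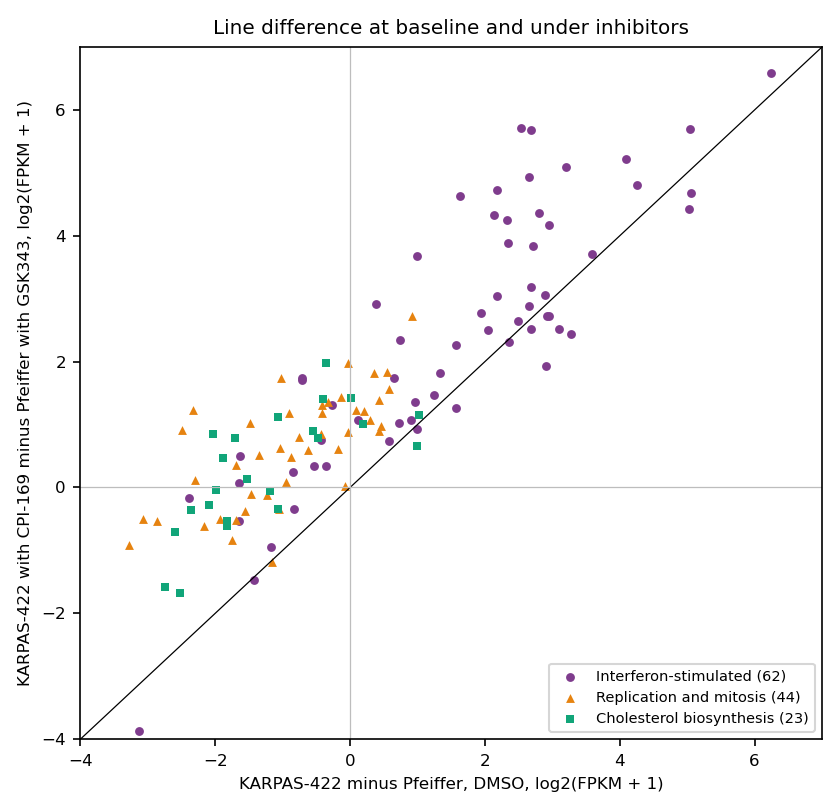
Difference between the lines (KARPAS-422 minus Pfeiffer, log2(FPKM + 1) scale) in DMSO libraries (x axis) and in inhibitor-treated libraries (y axis) for tested members of 3 lists: interferon-stimulated (62 genes), replication and mitosis (44) and cholesterol biosynthesis (23). Points lie above the diagonal for 49 of 62, 43 of 44 and 22 of 23 members, and 22 replication and mitosis genes have a negative x and a positive y.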

How the data were processed

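RNA sequencing of cell lines was read from 1 table of FPKM per gene for 12 libraries, of which 5 entered the baseline comparison. The authors deposited FPKM values, and TopHat 1.4.1, Cufflinks and hg19 are named in the submitters' processing notes. Of the library kit, strand handling and annotation release nothing is stated in the sources read, so antisense, overlapping and near-identical genes are uncertain. The table holds no counts, so sequencing depth is unknown and no counting error is given; precision rests on 3 and 2 libraries. The members and gene lists were chosen with earlier results of these data known.

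Genes at 1 FPKM or more in at least 2 of the 5 libraries were taken, 54 genes with missing values left out, and log2(FPKM + 1) was fitted with limma 3.58.1 in R 4.3.3 with a mean trend on the 5 libraries alone (3 residual and 3.27 prior degrees of freedom). A call needed a Benjamini-Hochberg adjusted p under 0.05 and a 2-fold difference. On simulated data for this comparison of 17222 genes, 97.5% of 200 changed genes were recovered and 1 unchanged gene was called. The simulation drew normal noise around a common mean. Its changes all exceeded the 2-fold minimum, went in the same direction and fell on genes that were not low. The real data hold far more changed genes, in both directions and at low levels, so these rates are not its error rates. Named genes were a short set of lymphoma and EZH2-related genes in any case, the 15 furthest apart in each direction among called protein-coding genes with no overlap that average 10 FPKM or more in the higher line, the 4 called members with the smallest adjusted p and up to 2 abundant uncalled members of each list, members of the immunoglobulin, structured RNA and chromosome block groups, and the 6 most abundant uncalled genes; genes added after their values were seen are marked or illustrate a class. Not every gene the rule allows is printed, and some are not reported here.

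Gene classes were matched by gene identifier to a reference annotation used for names only, and promoters by symbol to RefSeq (GRCh38.p14). Alternatives were another pseudocount, other filters, scalings and call rules, wider fits, the replicate number as a block, and leaving out each library.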

Additional observations from a re-analysis of the deposited data

How the results depend on the processing

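Against 3905 genes higher in KARPAS-422 and 4925 higher in Pfeiffer, the adjusted p alone gave 7265 and 7692, a minimum of 5 FPKM left 3260 on the Pfeiffer side, and a fit of rescaled protein-coding genes alone gave 1771 there, against 2452 for the same class without rescaling. Leaving out each library gave 3875 to 3938 and 4816 to 5010, and 5506 to 6109 genes called the same way in the treated libraries, where this was added after seeing the data. A pseudocount of 0.1 gave 4712 and 5513, median scaling 3154 and 5647 and quantile normalization 4618 and 3961. Without genes listed at 0 throughout 1 line, an alternative chosen after seeing the data, the counts were 3852 and 4588. Of 3774 values of the 238 named genes over the alternatives, 3645 kept direction and call, 74 gained a call, 27 lost one and 28 changed sign. After quantile normalization the sign turned for ACTB (1.42), B2M (1.30), CD37 (1.03), HLA-B (0.89), SERF2 (0.85), RP5-940J5.9 (0.66), RHOA (0.59), RPL28 (0.56), SYK (0.23), CDK4 (0.22), CD79B (0.22), IRAK1 (0.18), IRF8 (0.0020) and RING1 (-0.0889). With protein-coding genes rescaled it turned for KDM2B (0.37), CD37 (0.34), TBL1XR1 (0.33), IRAK1 (0.32), RELA (0.27), CDK4 (0.20), SYK (0.19) and RHOA (0.15), and after median scaling for CD46 (-0.10) and RING1 (-0.22). RING1 ranged from -0.0533 to 0.0997 with 1 library left out, and KDM2B was at 0.0842 without Pfeiffer replicate 2. Of these genes CD79B alone was called in the main comparison, and the cause was not tested. Among the calls gained by leaving out 1 library were B2M (-1.11 without KARPAS-422 replicate 2) and PAX5 (1.09 without Pfeiffer replicate 2).

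The lines share replicate numbers 1 and 2 in the labels. Deviations of same-numbered libraries correlated across genes at -0.281 and -0.172. With 2 Pfeiffer libraries the deviations of these mirror each other, so the values cannot show whether same-numbered libraries share more than a number. With the replicate block 3876 and 5011 genes were called, TYMS lost its call (-0.99), PAX5 gained one (1.01) and RING1 was at -0.0211. The depth is unknown, so how far it limits low genes cannot be given.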
